A study of Sus scrofa with 20 samples.

Results

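The collagen genes are those whose name is COL, a number, the letter A and a number, so that each encodes 1 chain of a collagen. Of the 25764 genes in the deposited table, 33 met this rule, and all 33 were found by name in the RefSeq gene table of the pig. Collagens are the main structural proteins of the extracellular matrix. A collagen molecule is a triple helix of 3 chains, which is folded and modified in the cell, secreted, trimmed and then assembled into fibrils, sheets or filaments. In the wall of the gallbladder and bile ducts and in the portal tracts of the liver, fibrils of types I and III give the tissue its strength, type IV forms the sheet of the basement membrane under epithelium and endothelium, and smaller collagens link these structures to cells and to each other.

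RNA with poly(A) tails was sequenced from sorted or isolated pig cells in 20 libraries. Of these, 5 were porcine biliary tree stem cells (pBTSCs), labelled as gallbladder. Gallbladder, cystic duct and common duct were the source tissue for their isolation. The other 15 were sorted liver cells, namely 4 libraries of CD45-/EpCAM+, 2 of CD45-/EpCAM-, 5 of CD45+, 2 of CD31+ and 2 of CD146+ cells. CD45 marks leukocytes, EpCAM epithelium, CD31 endothelium and CD146 endothelium and pericytes. The pBTSC libraries S2, S7 and S11 came from 3 piglets of an H2B-GFP line, aged 1, 1 and 2 days, and S15 and S20 from 2 wild-type piglets aged 1 day. The H2B-GFP line carries histone H2B joined to green fluorescent protein at the ACTB locus and expresses it in all tissues. The methods of the study describe liver cells from neonatal, or from fetal or neonatal, animals, but which pig and line each liver library came from is not given in the sources used here. These libraries are named by their label numbers, S3 to S23, and the numbers fall into 5 runs, each from 1 pBTSC library to the next. In the methods, biliary tree stem cells are those selected as CD45- and EpCAM+, which were then held for hours in suspension, where they formed organoids with early mesenchymal cells. Whether these libraries were made before or after that step is not stated. No library received a treatment according to the labels. Between pBTSCs and liver libraries, cell type and tissue cannot be told apart.

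The values were normalized counts, that is, reads per gene scaled by the authors for the size of each library. Estimated from the steps between low values, 17 libraries held about 21198200 to 77831200 reads, while S22 held 454551, S13 held 801427 and S15 held 1566940. A gene at 0 in S15, S13 or S22 may therefore have had up to 37.7, 77.1 or 156 normalized counts, the value of 3 reads. The other 17 libraries had a floor of at most 4.28. These floors cover counting error only. The labels were checked against their markers. ALB, the main plasma protein made by hepatocytes, ranged from 513084 to 1789960 in the liver libraries and from 287 to 25087 in pBTSCs. PTPRC, which encodes CD45, ranged from 424 to 2687 in the CD45+ libraries and from 450 to 3027 in the CD45-/EpCAM+ libraries, so these overlapped. EPCAM was at 491 and 1090 in the CD45-/EpCAM- libraries and at 1205 to 1779 in the CD45-/EpCAM+ libraries, which did not overlap. PECAM1, which encodes CD31, was at 20102 and 25291 in the CD31+ libraries, below its range of 28048 to 36576 in pBTSCs and within that of the CD45+ (12940 to 26682) and CD45-/EpCAM+ libraries (9903 to 25978). CD31+ and CD146+ libraries thus did not stand apart from the other liver sorts by PECAM1 or by 8 endothelial markers, which summed to 102996 to 129229 there, to at most 128210 in CD45+ and to at most 144053 in CD45-/EpCAM+ libraries.

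Collagen transcripts made up a larger share of pBTSC libraries than of any liver library. The 33 genes together took 2.87% of all normalized counts in S2, 2.92% in S7, 6.09% in S11, 9.22% in S15 and 9.29% in S20. In the 15 liver libraries they took 0.234% to 1.25%, with a median of 0.708%. The groups did not overlap. The 10 fibrillar collagens held most of this share in each pBTSC library, with 368573 and 384045 normalized counts in S2 and S7, 954748 in S11 and 1646530 and 1643440 in S15 and S20.

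**Figure D1:**
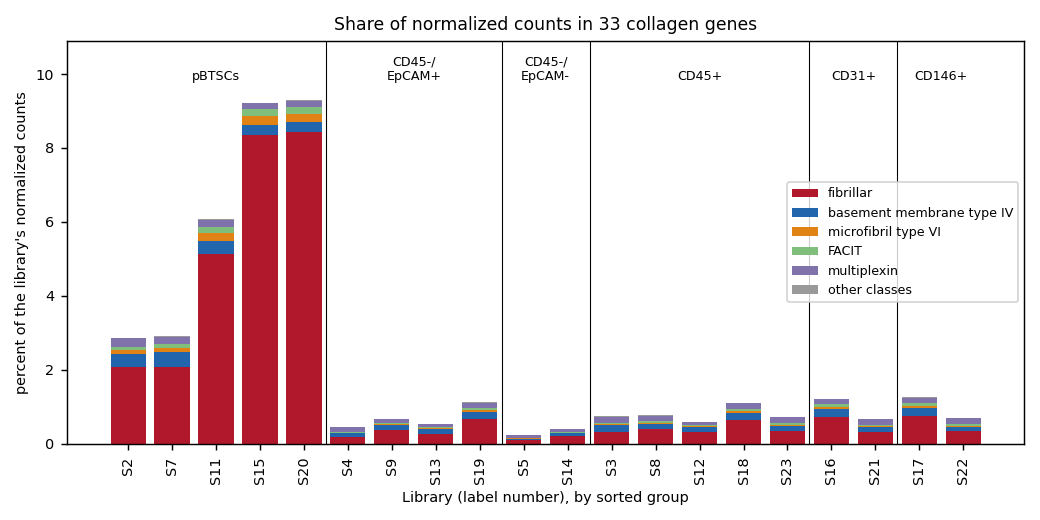
Share of each library's normalized counts (vertical axis, percent, from 0) in the 33 collagen genes, split by structural class, for the 20 libraries grouped by sort. The 5 pBTSC bars reach 2.87% to 9.29%, above the 15 liver bars, which end at 1.25% or lower.

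The question put to each gene was whether its level differed between pBTSCs and the mean of the 5 liver groups. Levels were compared on log2(normalized count + 1) with limma, and calls needed an adjusted p under 0.05 with a log2 fold change beyond 1. Of the 33 members, 31 reached 10 normalized counts in at least 2 libraries and were tested. Of these 31, 27 were higher in pBTSCs, against 16.1% of the 15576 genes tested, and 1 was lower, against 10.5%. COL11A2, COL9A2 and COL18A1 were called in neither direction. The median log2 fold change was 2.28 over the tested collagens and 0.11 over all genes tested. When all libraries were brought to equal totals, the median of all genes moved by 0.32, the higher share of all calls moved from 60.4% to 74.0%, and 27 collagens were again called higher and 1 lower. In 21 of the 31 members the lowest pBTSC value exceeded the highest liver value, against 11.9% of all genes, and in 0 the order was the opposite, against 9.21%. Over the 17 deeper libraries these counts were 22, against 16.2%, and 0, against 12.4%. In bulk RNA, fewer cells of a type and less RNA per cell cannot be told apart.

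**Figure D2:**
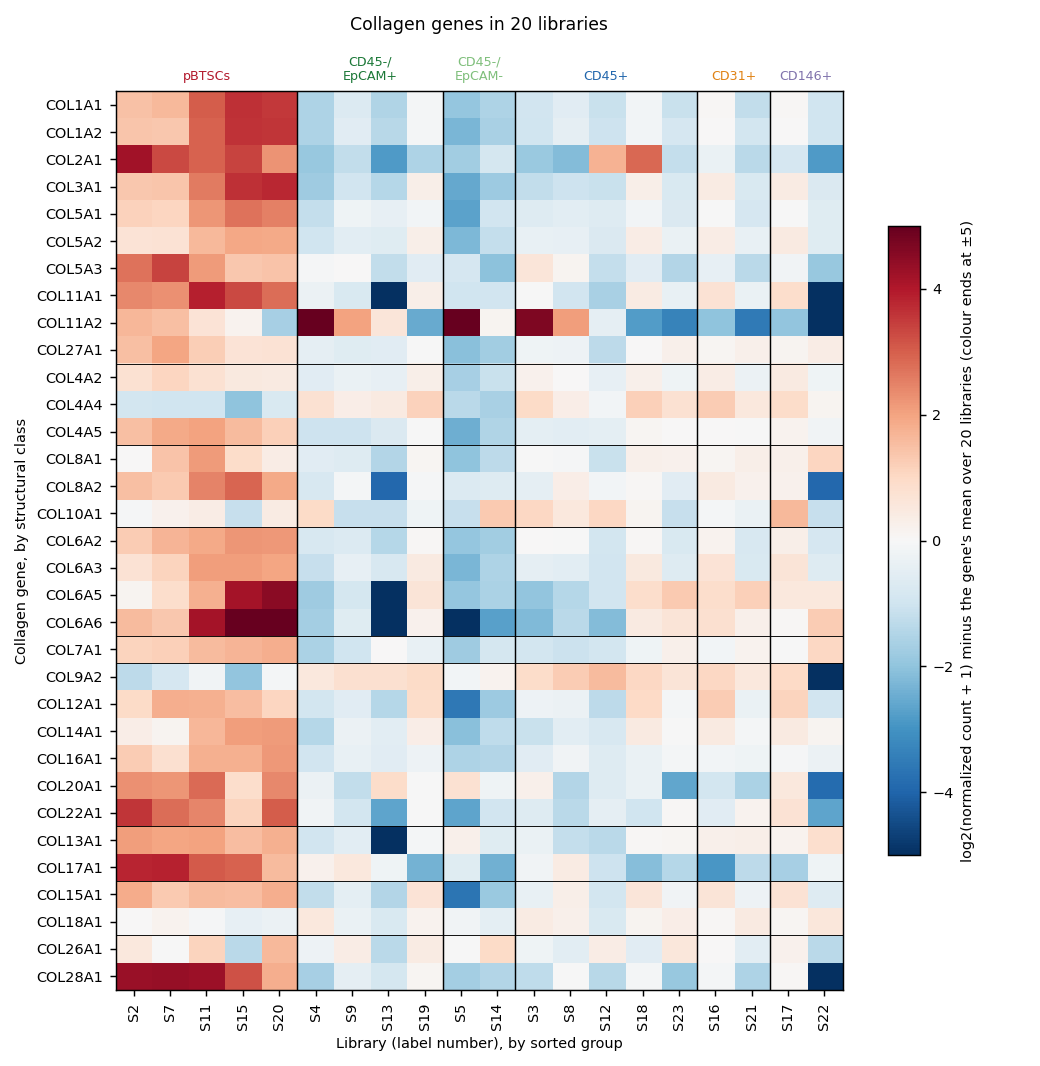
Levels of the 33 collagen genes (rows, by structural class) in the 20 libraries (columns, by sorted group), as log2(normalized count + 1) minus the gene's mean over the 20 libraries, with colours ending at ±5. Most rows are red in the 5 pBTSC columns, COL4A4 is blue there, and COL11A2 is red in S3, S4 and S5.

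The fibrillar collagens form the striated fibrils of connective tissue, and 9 of their 10 members were higher in pBTSCs. COL1A1, the chain present in 2 copies in type I collagen, had 129440, 141140, 381293, 581225 and 543321 normalized counts in S2, S7, S11, S15 and S20. The liver libraries had 12015 to 48370 (median 23116). S2 and S7 were the lowest of the pBTSCs, and all 5 lay above the liver range. The difference was 11.9-fold (log2 3.57 ± 0.39, SE; adjusted p = 1.02e-06). COL1A2, the other chain of type I, had 59878, 57733, 177328, 281042 and 271482 in the same order, against 4645 to 23354 in liver (median 12043), a difference of 11.1-fold (log2 3.47 ± 0.38, adjusted p = 1.05e-06). The ratio of COL1A1 to COL1A2 counts, which is not per length, was at most 2.44 in pBTSCs and 2.59 in liver, with medians of 2.15 and 1.99 and overlapping ranges.

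COL3A1, the chain of the type III fibrils found in elastic and hollow organs, had 144378, 146547, 337875, 712328 and 762054 in S2, S7, S11, S15 and S20. In liver it lay between 9502 and 73757 (median 28829). The pBTSC libraries again formed a low pair and 3 higher libraries, all above the liver libraries (log2 3.41 ± 0.46, adjusted p = 9.80e-06). COL5A2, a chain of the type V collagen that sits inside type I fibrils and limits their width, had 16164, 16315, 31094, 38511 and 37262 against 2129 to 13771 (log2 1.88 ± 0.28, adjusted p = 2.96e-05). COL5A2 and COL3A1 lie next to each other in the pig genome. COL5A2 counts were 0.049 to 0.112 of COL3A1 counts in pBTSCs and 0.174 to 0.327 in liver, with no overlap, so COL3A1 differed more than its neighbour did. COL5A1, the other main type V chain, had 9509 to 29462 in pBTSCs and 706 to 4456 in liver (log2 2.65 ± 0.30, adjusted p = 1.34e-06). The ratio of COL5A2 to COL5A1 was 1.31 to 1.72 in pBTSCs and 1.81 to 3.19 in liver.

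COL5A3, a less common type V chain, moved among the pBTSC libraries in the other sense. It had 6454 and 10034 in S2 and S7, 4324 in S11, and 2474 and 2635 in S15 and S20, against 232 to 1474 in liver (log2 3.06 ± 0.40, adjusted p = 7.52e-06). S2 and S7 were thus its highest libraries, where they were the lowest for COL1A1 and COL3A1. COL5A3 counts were 0.643 and 1.055 of COL5A1 counts in S2 and S7, 0.209 in S11 and 0.084 and 0.104 in S15 and S20. In liver this ratio also varied with the label numbers. It was 0.517, 0.479 and 0.771 in S3, S4 and S5, 0.0999 to 0.771 over S3 to S14, and 0.0893 to 0.195 in S16 to S23.

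Of the fibrillar collagens best known from cartilage, COL2A1 had 127.7, 67.4, 53.1, 72.3 and 32.5 in S2, S7, S11, S15 and S20. In liver it lay between 0 and 50.2 (median 1.73), and only S18 at 50.2 reached the pBTSC range. Its fitted difference was large (log2 4.41 ± 0.70, adjusted p = 6.42e-05) but moved from 2.52 to 5.34 with the number added before taking logs, since most liver values lay near or under the floor. COL11A1 had 205, 188, 581, 389 and 268 against 0 to 70.1 in liver (log2 3.94 ± 0.86, adjusted p = 1.13e-03), and both liver values of 0 were in the shallow S13 and S22. COL27A1, a fibrillar collagen of cartilage and developing tissue, had 1725, 2358, 1423, 966 and 1011 against 143 to 782 in liver (log2 1.66 ± 0.23, adjusted p = 1.26e-05).

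COL11A2, a type XI chain, was the fibrillar collagen not called. It had 170.6, 153, 86.8, 60.1 and 16.04 in S2, S7, S11, S15 and S20. In liver it had 1368 to 2398 in S3, S4 and S5, 216 and 231 in S8 and S9, 38.4 to 82.1 in S12, S13 and S14, and at most 12.8 in S16 to S23. Libraries of CD45+, CD45-/EpCAM+ and CD45-/EpCAM- cells with neighbouring label numbers thus had like values, while CD45+ libraries ran from 1368 in S3 to 4.31 in S23. The difference from pBTSCs was log2 0.99 ± 1.32 (adjusted p = 0.563) over all libraries and -1.17 in S2 to S14 alone, where its direction was the opposite.

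**Figure D3:**
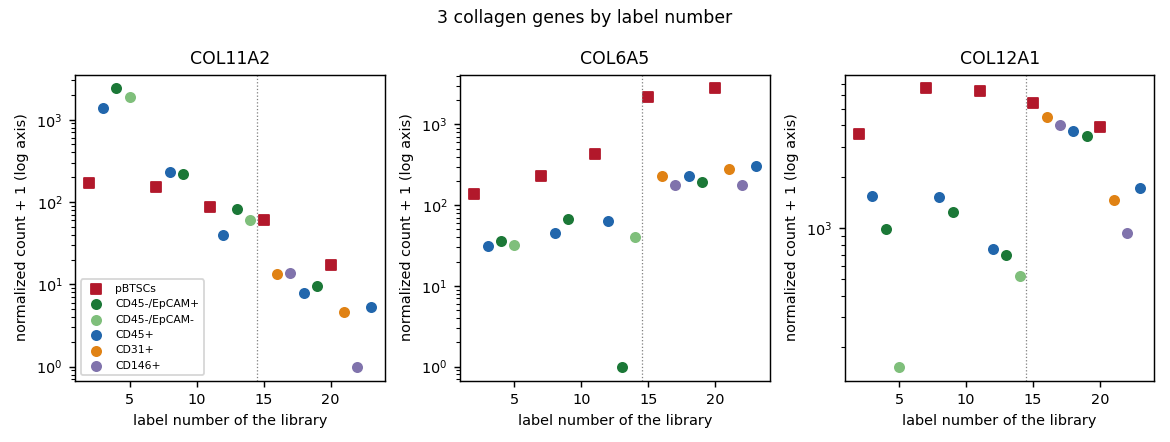
Normalized count + 1 (log axis) of COL11A2, COL6A5 and COL12A1 against the label number of the library, with pBTSCs as squares and liver sorts as circles. COL11A2 is above 1000 in S3, S4 and S5 and at most 12.8 counts in the liver libraries S16 to S23, and COL6A5 is at 2200 and 2790 in the pBTSC libraries S15 and S20.

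Type IV collagen was represented by 3 chains with opposite results. COL4A2, which pairs with COL4A1 in nearly all basement membranes, had 56203, 68897, 56272, 46498 and 44279 in S2, S7, S11, S15 and S20, against 10412 to 44199 in liver (median 28047). The ranges almost touched, and the difference was 2.02-fold (log2 1.02 ± 0.20, adjusted p = 5.72e-04), just past the threshold of 1 in log2. Leaving out any 1 of 8 libraries (S2, S7, S11, S4, S5, S12, S21 or S22) took it to values from 0.93 up to just under 1. COL4A5 had 5505, 7194, 7950, 5859 and 4386 against 355 to 2198 (log2 2.23 ± 0.19, adjusted p = 5.31e-08), with no overlap. COL4A5 counts were 0.098 to 0.141 of COL4A2 counts in pBTSCs and 0.034 to 0.071 in liver.

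COL4A4 was the only collagen called lower in this comparison. Its product joins those of COL4A3 and COL4A5 in a network best known from the kidney filter. It had 257.5, 240.6, 247.1, 119.1 and 286.8 in S2, S7, S11, S15 and S20, against 160 to 1171 in liver with a median of 708. The pBTSCs overlapped only with the CD45-/EpCAM- libraries S5 and S14, at 189.5 and 159.8, and lay below the other 13, which started at 448. The difference was 2.62-fold lower (log2 -1.39 ± 0.24, adjusted p = 1.20e-04). Against single liver groups COL4A4 was lower than in CD45-/EpCAM+ (log2 -1.81 ± 0.30, adjusted p = 1.46e-04), CD45+ (-1.76 ± 0.28), CD31+ (-2.04 ± 0.37) and CD146+ cells (-1.67 ± 0.37), and 0.34 ± 0.37 against CD45-/EpCAM- cells (adjusted p = 0.469).

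**Figure D4:**
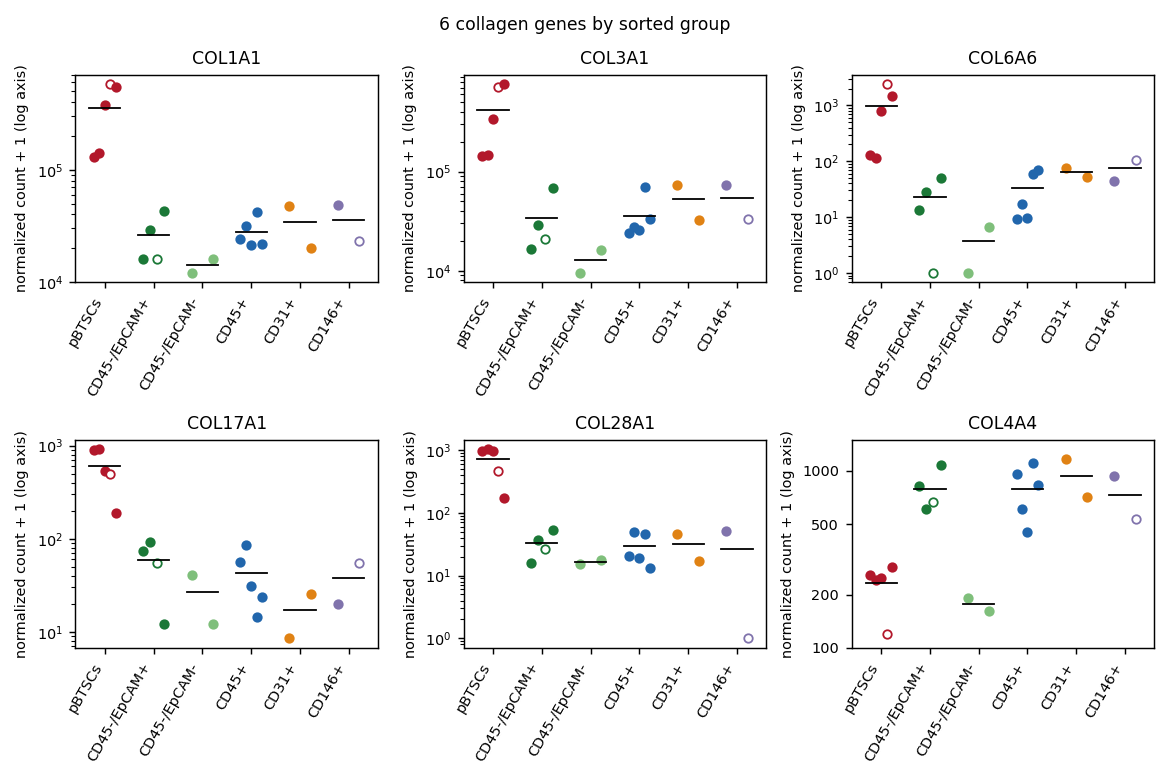
Normalized count + 1 (log axis) of 6 collagen genes in each library (points) with the group mean (line), by sorted group; open points are the shallow libraries S13, S15 and S22. For 5 genes all 5 pBTSC points lie above all liver points, and for COL4A4 they lie below all except the 2 CD45-/EpCAM- points.

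The short-chain collagens form hexagonal networks. COL8A1, found in vessel walls, had 561, 1520, 2435, 1047 and 731 in S2, S7, S11, S15 and S20, against 139 to 1196 in liver, so S2, S15 and S20 lay within the liver range (log2 1.28 ± 0.32, adjusted p = 2.98e-03). Leaving out S11 brought it to 0.99, under the threshold of 1. COL8A2 had 36.9 to 113 in pBTSCs and 0 to 19.9 in liver (log2 2.72 ± 0.62, adjusted p = 1.70e-03). COL10A1, the collagen of hypertrophic cartilage, was not tested and lay between 0 and 5.82 in all libraries.

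All 4 type VI chains were higher in pBTSCs. Type VI collagen forms beaded filaments between cells and the fibrils around them. COL6A2 had 7120, 9650, 10973, 13818 and 13228 in S2, S7, S11, S15 and S20, against 783 to 3642 in liver (log2 2.53 ± 0.25, adjusted p = 3.33e-07). COL6A3 had 10097, 13342, 26041, 26637 and 24234 against 1260 to 9840 (log2 2.16 ± 0.33, adjusted p = 3.80e-05). Neither gene overlapped between pBTSCs and liver.

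COL6A5 and COL6A6 encode chains that can take the place of the COL6A3 chain, and they varied more. COL6A5 had 135.1, 227.3, 424, 2200 and 2790 in S2, S7, S11, S15 and S20, so the wild-type libraries S15 and S20 stood above the others. In liver it had 0 to 65.9 in S3 to S14 and 175 to 306 in S16 to S23, and S2 and S7 lay within the liver range. Its difference from liver was log2 2.88 ± 0.96 (adjusted p = 0.0206), and without S15 or without S20 it was 2.41 or 2.33 and not called (adjusted p = 0.0721 and 0.0764). COL6A6 had 129.8, 111.3, 782.8, 2411 and 1477 against 0 to 104 in liver, with no overlap (log2 4.74 ± 0.89, adjusted p = 3.20e-04). The liver value of 104 was in the shallow S22, under its floor of 156, so the gap to S7 is not resolved there. Over the 17 deeper libraries COL6A6 did not overlap either. COL6A5 counts were 0.013 to 0.017 of COL6A3 counts in S2, S7 and S11 and 0.083 and 0.115 in S15 and S20, so it differed between these libraries far more than COL6A3 did.

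COL7A1 forms the anchoring fibrils that tie an epithelial basement membrane to the tissue under it. It had 493.7, 523.2, 688.8, 754.4 and 818.6 in S2, S7, S11, S15 and S20, against 66.0 to 470 in liver (log2 1.91 ± 0.28, adjusted p = 2.57e-05). The highest liver value was that of the shallow S22.

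The FACIT collagens sit on the surface of fibrils and link them to other molecules, and 5 of the 6 tested were higher in pBTSCs. COL14A1 had 8541, 7472, 21412, 28705 and 29242 in S2, S7, S11, S15 and S20, against 1578 to 9292 in liver (log2 1.70 ± 0.35, adjusted p = 7.00e-04), and S2 and S7 lay within the liver range. COL12A1, found in tendon and in tissue under load, had 3546, 6580, 6392, 5412 and 3898 against 153 to 4458 (log2 2.01 ± 0.43, adjusted p = 1.05e-03), with S2 and S20 within the liver range. COL16A1 had 3164, 2250, 4451, 4427 and 5831 against 444 to 1249 (log2 2.10 ± 0.17, adjusted p = 3.55e-08) and did not overlap.

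COL20A1 and COL22A1 were low. COL22A1, a collagen of tissue junctions, had 74.2, 42.6, 33.1, 12.6 and 49.8 against 0 to 9.34 in liver (log2 3.51 ± 0.57, adjusted p = 7.31e-05). COL20A1 had 25.8 to 102 against 0 to 26.4 (log2 2.87 ± 0.60, adjusted p = 8.50e-04). In S15 both values were under the floor of 37.7. COL9A2, a chain of the cartilage collagen type IX, had 39.9, 56.3, 89.6, 25.1 and 94.8 in pBTSCs against 0 to 309 in liver (median 180). Only S22, at 0 with a floor of 156, put the lower end of liver below 91.6. Its difference was log2 -0.85 ± 0.74 (adjusted p = 0.368), and without S13, S15 and S22 it was called lower at -1.34 (adjusted p = 3.67e-04).

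The collagens that cross the cell membrane were both higher. COL17A1, a part of the hemidesmosomes that hold epithelial cells to their basement membrane, had 896.9, 913.7, 530.1, 492 and 188.9 in S2, S7, S11, S15 and S20, against 7.51 to 91.3 in liver with a median of 30.4. All pBTSCs lay above the liver libraries, with S2 and S7 highest and S20 lowest, and the difference was 18.7-fold (log2 4.23 ± 0.54, adjusted p = 6.19e-06). COL13A1, found at sites where cells attach, had 340.9, 314.6, 321.5, 233.4 and 269.7 against 0 to 143 (log2 2.27 ± 0.69, adjusted p = 0.0122). The pBTSC values lay close together, at 296 ± 43.6 (SD, n = 5), and above all liver values.

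The multiplexins lie where basement membranes meet the matrix, and here the 2 members parted. COL15A1 had 12657, 8698, 10453, 10285 and 12253 in S2, S7, S11, S15 and S20, against 279 to 5685 in liver, without overlap (log2 2.28 ± 0.35, adjusted p = 4.03e-05). COL18A1, whose end is cut off as endostatin and which liver cells make in quantity, had 26779, 29360, 24879, 19927 and 21546 against 15336 to 39061 (median 29139). All pBTSC values lay within the liver range. The difference was log2 -0.16 ± 0.22 (adjusted p = 0.575), and it was 0.16 after rescaling to the same total and 0.20 in S2 to S14 alone, so its direction flipped.

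COL28A1 had the highest log2 fold change of the 31 over all libraries with 1 added before taking logs. COL6A6 was above it with label range as a term (5.10 against 4.89) and in S15 to S23 alone (4.91 against 3.81). With a pseudocount of 0.1, COL2A1 and COL28A1 were both at 5.34. COL28A1 is known from peripheral nerves, around glial cells. It had 976.7, 1026, 952.9, 456 and 172.3 in S2, S7, S11, S15 and S20, against 0 to 52.2 in liver with a median of 19.7 (log2 4.96 ± 0.68, adjusted p = 1.23e-05). The 3 H2B-GFP libraries lay close together and above both wild-type libraries, and all 5 were above liver. COL26A1 was not tested and lay between 0 and 6.71. COL4A1, COL4A3, COL4A6, COL6A1, COL9A1, COL9A3, COL19A1, COL21A1, COL23A1, COL24A1 and COL25A1 were not analysed here.

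**Figure D5:**
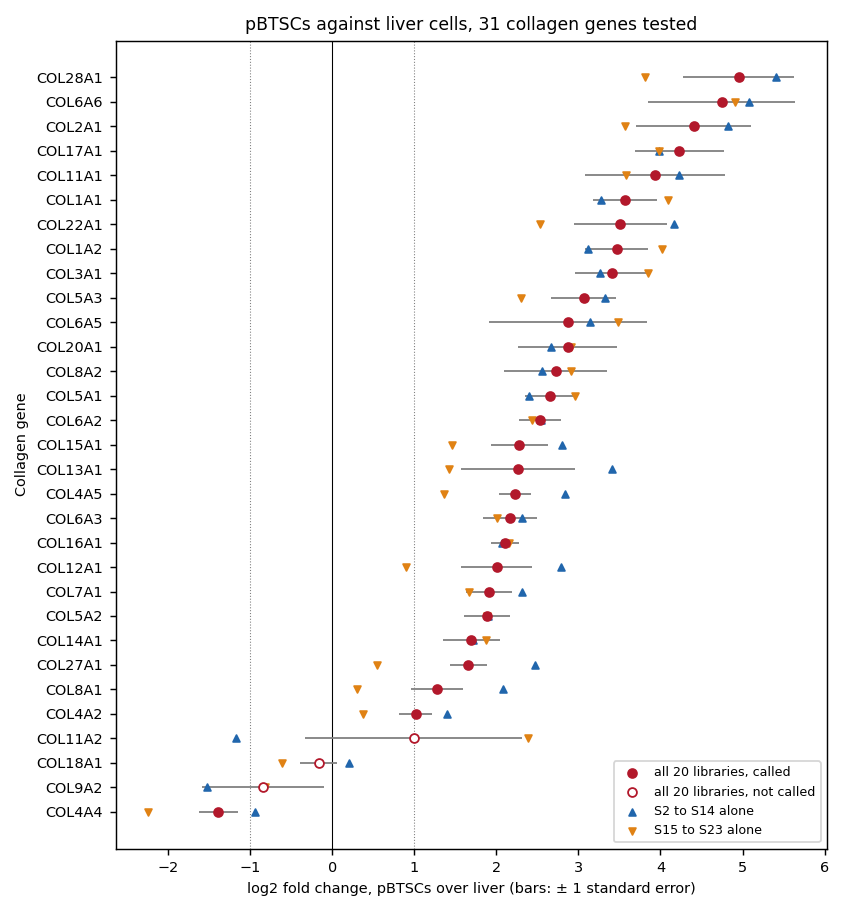
log2 fold change of pBTSCs over the mean of the 5 liver groups for the 31 collagen genes tested (circles, filled where called; bars are ± 1 SE). Triangles give pBTSCs over the pooled liver libraries of S2 to S14 alone and of S15 to S23 alone, which hold different liver sorts. Values run from -1.39 for COL4A4 to 4.96 for COL28A1, and the triangles lie on opposite sides of 0 for COL11A2 and COL18A1.

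The label numbers split the libraries into S2 to S14 and S15 to S23, and each range was also fitted alone, with its liver libraries pooled whatever their sort. CD45-/EpCAM- libraries occur only in S2 to S14, and CD31+ and CD146+ libraries only in S15 to S23. The liver side thus differs in its sorts between these fits. In S2 to S14, 28 members were called, while 16.8% of all genes were called higher and 12.2% lower. COL9A2 was lower there, at log2 -1.53, and COL4A4 was not called (-0.94, adjusted p = 0.154). In S15 to S23, which holds 2 pBTSC libraries, 20 were called, while the shares of all genes were 9.18% and 8.92%. COL28A1 (3.81, adjusted p = 0.0586), COL11A1 (3.58, adjusted p = 0.0772), COL8A2 (2.91, adjusted p = 0.0592) and COL20A1 (2.91, adjusted p = 0.0663) kept a difference of over 2 in log2 there and missed the threshold on p. COL12A1 (0.90), COL27A1 (0.54), COL4A2 (0.38) and COL8A1 (0.31) were under the threshold of 1. With a pseudocount of 0.1 over all libraries, COL13A1 (adjusted p = 0.0675) and COL6A5 (adjusted p = 0.0584) were not called.

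Each liver group was also compared with pBTSCs on its own. These 5 comparisons share the 5 pBTSC libraries. Against CD45-/EpCAM+ cells, 26 collagens were higher, against 14.8% of all genes, and 1 lower, against 10.3%. Against CD45-/EpCAM- cells, 25 were higher (20% of all genes) and 0 lower (16.6%). Against CD45+ cells, 25 were higher (11%) and 1 lower (9.54%). The CD31+ and CD146+ groups, of 2 libraries each, gave fewer calls. Against CD31+ cells, 16 were higher (6.73%) and 1 lower (7.62%), and fewer were called without S21. Against CD146+ cells, 18 were higher (14.5%) and 1 lower (7.75%), and fewer were called without S22 or without S13, S15 and S22. These fits leave 1 library in a group, which was assumed to vary as the other groups did. How many of all genes they called is not given here. With 1 library left out at a time, COL1A1 ranged from log2 2.62 to 3.88 against CD31+ cells and from 2.60 to 3.67 against CD146+ cells. COL6A3 ranged from 0.92 to 2.36 and from 0.93 to 2.24.

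Against each of the 5 groups 14 members were called higher, compared with 4.85% of all genes, namely COL1A1, COL1A2, COL2A1, COL3A1, COL5A1, COL5A2, COL5A3, COL4A5, COL6A2, COL6A3, COL16A1, COL22A1, COL17A1 and COL28A1. Lower against each of the 5 were 0 members, compared with 5.85% of all genes. COL17A1 was at log2 3.51 ± 0.69 against CD45-/EpCAM+, 4.57 ± 0.86 against CD45-/EpCAM-, 3.91 ± 0.65 against CD45+, 5.16 ± 0.86 against CD31+ and 3.99 ± 0.86 against CD146+ cells. COL28A1 was at 4.31 ± 0.86, 5.17 ± 1.07, 4.52 ± 0.81, 4.40 ± 1.07 and 6.38 ± 1.07 in the same order, the last resting in part on the 0 in S22. COL6A6 had the largest rise against CD45-/EpCAM+ (5.49), CD45-/EpCAM- (7.69) and CD45+ cells (4.52, as COL28A1), and was not called against CD31+ (3.08, adjusted p = 0.161) or CD146+ cells (2.94, adjusted p = 0.135).

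Over the 17 deeper libraries, pBTSCs had the highest mean of the 6 groups for 28 of the 33 members, and CD45-/EpCAM- liver cells had the lowest for 25. The CD146+ mean was S17 alone there, and the 33 include COL10A1 and COL26A1, which were not tested. How often each group ranks highest or lowest over all genes was not counted. Within liver, CD45-/EpCAM- was compared with CD45-/EpCAM+ cells, and 4 collagens were lower, against 2.03% of all genes, and 0 higher, against 0.770%. The 4 were COL4A4, COL15A1, COL27A1 and COL4A5. COL4A4 had 189.5 and 159.8 in S5 and S14 against 610 to 1084 (log2 -2.15 ± 0.39, adjusted p = 0.0171). COL15A1 had 279.2 and 956.8 against 1261 to 5586 (-2.12 ± 0.57, adjusted p = 0.0493), COL27A1 142.9 and 178.5 against 396 to 595 (-1.50 ± 0.37, adjusted p = 0.0399) and COL4A5 355.2 and 688.9 against 943 to 1929 (-1.27 ± 0.31, adjusted p = 0.0389). None of the 4 overlapped.

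Both CD45-/EpCAM- libraries carry labels in the range S3 to S14. Against the other 6 liver libraries of this range, 13 of the 31 members lay lower without overlap, against 10.2% of all genes, and 0 higher, against 6.29%. The number of calls against CD45-/EpCAM+ cells depended on single libraries. It was 0 without S19, 1 without S2, S16 or S21, and 2 without S3, S4, S8 or S11. The number also changed without S5 or without S14, fits that leave 1 CD45-/EpCAM- library. How many of all genes these fits called is not given here. Calls numbered 0 with only these 2 groups in the fit and 7 without S13, S15 and S22. With the runs of label numbers as a block over all libraries 2 were lower (2.07% of all genes), COL4A4 and COL4A5, and 0 higher (1.34%), while COL15A1 (adjusted p = 0.0561) and COL27A1 (adjusted p = 0.0583) were not called. The summed fibroblast and stellate cell markers were 7567 and 10900 in these libraries against 10638 to 19767 in CD45-/EpCAM+ cells, and the smooth muscle and pericyte markers 18722 and 12825 against 19403 to 55428. Their part in the result was not tested.

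The other liver sorts did not differ from CD45-/EpCAM+ cells in any called collagen. limma called 0 members in CD45+, CD31+ and CD146+ cells, and 0% of all genes in each, with and without the runs of label numbers as a block. At an unadjusted p under 0.05 there were 0, 1 and 6 members, and 214, 506 and 2842 of all genes. Some members were called in CD146+ cells without S17, a fit that leaves only the shallow S22 in that group. How many of all genes that fit called is not given here.

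Libraries with neighbouring label numbers resembled each other across sorts. Among S16 to S19, which hold 1 library each of CD31+, CD146+, CD45+ and CD45-/EpCAM+ cells, COL3A1 was at 73757, 73597, 69250 and 68834. Among S21 to S23, of CD31+, CD146+ and CD45+ cells, it was at 32692, 33593 and 32931. COL12A1 was at 3486 to 4458 in the first run and 939 to 1720 in the second, and COL6A3 at 8525 to 9840 and 3636 to 3979. In 18 of 31 members all 4 libraries of S16 to S19 lay above all 3 of S21 to S23, against 18.7% of all genes, and in 4 below, against 15.2%. These runs were compared after their values were seen. Fibroblast and stellate markers summed to 19342 to 21475 in S16 to S19 and 14788 to 16749 in S21 to S23, whose part was not tested.

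The label ranges themselves were compared in the CD45+ and CD45-/EpCAM+ libraries, which occur in both. From S3 to S14 to S16 to S23, 3 members were higher (2.75% of all genes) and 2 lower (2.01%). COL12A1 (log2 1.38 ± 0.36, adjusted p = 0.0431), COL3A1 (1.19 ± 0.32, adjusted p = 0.0483) and COL14A1 (1.02 ± 0.26, adjusted p = 0.0414) were higher. COL11A2 (-5.18 ± 1.27, adjusted p = 0.0379) and COL17A1 (-1.92 ± 0.42, adjusted p = 0.0271) were lower. COL4A5 differed by 0.70 ± 0.12 (adjusted p = 0.0128), under the threshold of 1. Over all 15 liver libraries, COL4A5 was at 355 to 1383 in S3 to S14 and 1708 to 2198 in S16 to S23. The value of 355 was that of the CD45-/EpCAM- library S5. COL4A5 was 1 of 7 members higher without overlap (7.06% of all genes), and COL11A2 was the 1 member lower (7.97%). The sorts differ between the ranges over these 15 libraries, so sort and label range cannot be told apart there. The 5 calls became 0 without S3, S8, S18 or S19, 1 without S9, 2 without S4 or S12 and 3 without S23. What the label ranges stand for is not given in the sources used here.

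Within the pBTSCs, S15 and S20 were compared with S2, S7 and S11, which is also the comparison of wild-type with H2B-GFP piglets. 1 of 31 members was called higher (0.995% of all genes) and 0 lower (0.205%). It was COL6A5 (log2 3.39 ± 0.46, adjusted p = 0.0418), whose values are given above with S2, S7 and S11 at 135.1 to 424 and S15 and S20 at 2200 and 2790. 14 members had an unadjusted p under 0.05 in limma, as had 2755 of all 15576 genes tested. COL28A1 (-1.81 ± 0.39, adjusted p = 0.118), COL5A3 (-1.36 ± 0.34, adjusted p = 0.148) and COL3A1 (1.94 ± 0.62, adjusted p = 0.214) were among those not called. The number of members called was 0 without S2 or S7 and 4 without S11. It was 1 without S15 or S20, though not COL6A5, whose adjusted p was then 0.169 and 0.0878. Line, label range and piglet cannot be told apart here. RNA integrity, as recorded by the study, was lower in S2, S7 and S11 than in S20 and is not given for S15. Whether it runs along the same split thus rests on S20 alone, and its part in these differences was not tested. No such record is given for the liver libraries, so its part in the comparison of pBTSCs with liver was not tested either.

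Whether the difference between pBTSCs and liver itself differed between the label ranges was tested over all 20 libraries, with the liver sorts pooled in each range. CD45-/EpCAM- libraries occur only in the first range and CD31+ and CD146+ libraries only in the second. Label range and mix of liver sorts therefore cannot be told apart in this test. 1 of 31 members was called (1.07% of all genes in this direction, and 1.80% in the other with 0 members). COL27A1 differed by log2 -1.93 ± 0.49 (adjusted p = 0.0365). Its pBTSC values were 1423 to 2358 in S2 to S11 and 966 and 1011 in S15 and S20. Its liver values were 143 to 524 in S3 to S14, lowest in the CD45-/EpCAM- libraries S5 and S14, and 595 to 782 in S16 to S23. Both sides thus lay closer together in the later range. Fitted apart, its difference from liver was 2.47 in S2 to S14 and 0.54 in S15 to S23.

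The enzymes that make and fold collagen chains were followed as a list of 19 genes. In pBTSCs 7 were higher than in liver, beside 16.1% of all genes, and 1 lower, beside 10.5%, with a median log2 difference of 0.75. The same shares of all genes hold for the lists of cross-linking genes and receptors. P4HA3, a catalytic chain of the prolyl hydroxylase that stabilises the helix, had 34.7, 39.3, 87.9, 101 and 49.4 in S2, S7, S11, S15 and S20 against 0 to 52.2 in liver (log2 2.50 ± 0.50, adjusted p = 5.96e-04). FKBP10, a chaperone of procollagen, had 1278 to 2531 against 308 to 905 (2.04 ± 0.24, adjusted p = 2.13e-06). COLGALT2, which adds galactose to collagen, differed by 2.01 ± 0.26. P4HB was lower, with 9363 to 11146 against 18915 to 51693 (-1.43 ± 0.19, adjusted p = 1.00e-05). It serves as the other chain of the prolyl hydroxylase and also as a general disulfide isomerase in secretory cells.

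Of 13 genes for trimming and cross-linking, 7 were higher and 1 lower in pBTSCs, with a median of 1.48. TLL1, a protease that removes the end of procollagen, had 708, 591, 718, 537 and 382 in S2, S7, S11, S15 and S20 against 0 to 54.2 in liver (log2 4.51 ± 0.49, adjusted p = 9.90e-07), without overlap. ADAMTS2, which removes the other end, had 1629 to 4844 against 305 to 867 (2.47 ± 0.30, adjusted p = 3.29e-06), and PCOLCE, a helper of the end-cutting proteases, 2344 to 8206 against 527 to 1370 (2.43 ± 0.29, adjusted p = 2.78e-06). LOX, which cross-links fibrils, had 2813 to 9828 against 434 to 2543 (2.30 ± 0.32, adjusted p = 1.35e-05). LOXL4 of the same family was lower, with 50.2 to 130 against 206 to 1062 (-1.88 ± 0.34, adjusted p = 1.91e-04).

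Of 11 listed receptors of collagen, 9 had a row, and 3 were higher and 0 lower, with a median of 0.65. MRC2, which takes up collagen for breakdown, had 2286, 1664, 4613, 8164 and 7765 in S2, S7, S11, S15 and S20 against 233 to 962 in liver (log2 2.86 ± 0.37, adjusted p = 6.82e-06), low in S2 and S7 as COL1A1 was. DDR2, a kinase activated by fibrillar collagen, had 809 to 1172 against 38.6 to 496 (2.33 ± 0.29, adjusted p = 4.21e-06). ITGA11 had 306 to 703 against 38.7 to 332 (1.58 ± 0.39, adjusted p = 2.95e-03).

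Markers of other cell types also differed between pBTSCs and liver. Of 10 fibroblast and stellate cell markers, 6 were higher and 1 lower in pBTSCs, and their sum was 31534, 30254, 49837, 84661 and 102266 in S2, S7, S11, S15 and S20 against 7567 to 21475 in liver. It was thus lowest in S2 and S7, as COL1A1, COL1A2 and COL3A1 were. The 6 smooth muscle and pericyte markers with a row were all higher. Their sums were 128655, 185385, 132330, 96611 and 97381 in S2, S7, S11, S15 and S20 against 12825 to 100135 in liver. These sums were thus lowest in S15 and S20, where COL1A1, COL1A2 and COL3A1 were highest. The sum of the 33 collagen genes was 16.1 to 22.7 times that of the fibroblast and stellate markers in pBTSCs and 7.49 to 14.1 times in liver, without overlap, a ratio chosen after the values were seen.

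All 4 Schwann and glia markers with a row were higher, with sums of 11910, 10006.5, 9197, 2498 and 3571 in S2, S7, S11, S15 and S20 against 335 to 1794 in liver, and were higher in the 3 H2B-GFP libraries, as COL28A1 was. COL28A1 was 0.0482 to 0.183 of this sum in pBTSCs and 0 to 0.0942 in liver, with overlap. All 8 hepatocyte markers were lower, with sums of 26028 to 67552 against 939979 to 2433300. Leukocyte markers summed to 3862 to 8936 in pBTSCs and 19600 to 81344 in liver, with 2 of 8 higher and 5 lower. Of 8 endothelial markers 2 were higher and 3 lower, and their sums of 76209 to 97744 lay within the liver range of 28452 to 144053. Of the 5 biliary and glandular epithelium markers with a row 0 were higher and 2 lower, with sums of 6396 to 13659 in pBTSCs and 7540 to 24608 in liver. The only markers at 0 were CD79B and CDH19 in S13 and CD3E, CD79B and SOX10 in S22. A selection for EpCAM and against CD45, as the methods describe for these cells, would remove fibroblasts, muscle, glia and leukocytes, while early mesenchymal cells are described in the organoids. The part of these cell types in the collagen levels was not tested.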

How the data were processed

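The submitters' processing notes name STAR, Salmon and DESeq2, with no versions or order, and the genome build is not given in the sources used here. Values deposited by the authors were normalized counts (unit: signal) in 1 table of 25764 genes, of which 7782 have no name, with their own mean column, which was not used. In each library the low values lie near whole multiples of 1 step, which gave an estimate of reads per library, but only 56.1% to 81.7% lay within 0.05 of a whole read, so counts were not rebuilt and tests of counts were not run. Total normalized counts were 17651500 to 30268300 per library.

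The values, as log2(normalized count + 1), were fitted with limma 3.58.1 under R 4.3.3, with a trended empirical Bayes step. Genes had to reach 10 normalized counts in 2 or more libraries, which left 15576, and p-values were adjusted over these by the method of Benjamini and Hochberg. Fold changes are on this scale. The added 1 shrinks the change of genes near 0, but values of 0 in the shallow S13, S15 and S22 can shift it in either direction. Without these libraries, the log2 change of pBTSCs against liver went from 3.94 to 2.97 for COL11A1 and from -0.85 to -1.34 for COL9A2. Groups came from the labels. Replicates were separate libraries, and since the liver pigs are not given, p-values there measure the spread between libraries only. Alternatives were pseudocounts of 0.1 and 10, no filter, a filter at 50, equal totals, other sets of libraries and each library left out in turn. A block for the 5 runs of label numbers was added after seeing the data. CD45+ and CD45-/EpCAM+ libraries of 1 run deviated together from their group means (r = 0.406 to 0.772 over genes in 4 pairs). Pairs of different runs had r from -0.538 (S8 with S19) to 0.536 (S23 with S19), so the ranges overlapped. What a run shares is not given in the sources used here. Python 3.11.15, numpy 2.4.6, pandas 2.3.3 and matplotlib 3.10.9 were used for the rest.

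Members and gene lists were chosen with earlier results of these data known. Values were given for up to 4 members of each structural class with the highest mean and up to 5 rises and 5 falls per comparison. For the pathway lists, counts and up to 4 called genes with the largest change were given, and members beyond these were named after their values were seen. No gene lengths were used, so levels were not compared between genes except as ratios of counts. Per-sample columns not used numbered 0.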

Additional observations from a re-analysis of the deposited data

Results flagged for a closer look

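Of 93 tests for a single outlying library, 1 per gene in each group of 4 or 5 libraries, 4 were positive, and about 1 in 20 is expected by chance. COL4A4 in pBTSCs was lowest in S15, at 119.134 normalized counts, a shallow library, with the other 4 at 240.6 to 286.8. COL13A1 in CD45-/EpCAM+ cells was at 0 in S13, whose floor of 77.1 lies above the other values of 39.9 to 74.3, so the 0 is within what this depth allows. COL8A1 and COL18A1 in CD45+ cells were lowest in S12, at 256.708 and 15581.1, with the other CD45+ libraries at 531.8 to 672.7 and 29139 to 35154. The difference of COL27A1 between pBTSCs and the pooled liver sorts changed with the label range, by -1.93 on the log2 scale (adjusted p = 0.0365 in limma). The liver sorts also differ between the ranges, as given above.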

How the results depend on the processing

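Of the collagens called in either direction, 28 in the comparison of pBTSCs with the mean of the liver groups, 26 to 28 were called under the other pseudocounts, filters and scalings, 20 in S15 to S23 alone, and 26 to 28 with 1 library left out. For single liver groups, leaving out 1 library gave 26 to 28 calls for CD45-/EpCAM+, 21 to 26 for CD45-/EpCAM-, 22 to 27 for CD45+, 4 to 18 for CD31+ and 6 to 20 for CD146+ cells. The last was 8 without S13, S15 and S22. Within liver, leaving out 1 library gave 0 calls for CD45+ against CD45-/EpCAM+ cells. Calls for CD45-/EpCAM- and CD146+ against CD45-/EpCAM+ cells depended on the library left out, as given above. For CD45-/EpCAM- cells they were 7 without S13, S15 and S22 and 0 with only the 2 groups. For the liver label ranges, calls were 0 to 7 with 1 library left out, 1 without a filter and 3 at equal totals. For the pBTSC ranges they were 0 to 4, and 0 with a pseudocount of 0.1 or no filter. For the interaction they were 0 to 2, and 0 without S13, S15 and S22. It was 0 without S7, S11, S15, S16, S17, S18, S20, S21 or S23 and 2 without S5. Directions reversed for COL11A2 in S2 to S14 alone (-1.17) and for COL18A1 at equal totals (0.16) and in S2 to S14 alone (0.20), and the cause was not tested.

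With the runs of label numbers as a replicate block, 28 members were called in pBTSCs against the mean of the liver groups. Of all genes, 17% were called higher there and 11.3% lower. Against the CD45-/EpCAM+, CD45-/EpCAM- and CD45+ groups 24 to 28 members were called. The shares of all genes were 12% to 18.9% higher and 10.3% to 16.2% lower. Against CD31+ cells 19 members were called, beside 8.01% and 8.54% of all genes. Against CD146+ cells 24 were called, beside 15.5% and 8.58%. Without the block these shares were smaller, at 6.73% and 7.62% for CD31+ and 14.5% and 7.75% for CD146+ cells. In CD45-/EpCAM- against CD45-/EpCAM+ cells 2 members were called, where 1.34% of all genes were higher and 2.07% lower. In liver libraries alone 4 were called, of which 3 were also called without the block, and the shares of all genes were 1.34% and 1.51%. In the other liver sorts 0 were called.

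Limits: 3 shallow libraries set the floor for low collagens, groups hold 2 to 5 libraries, and liver pigs are not given.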
